A study of Mus musculus with 12 samples.

Results

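The cation chloride cotransporters of the kidney tubule and the WNK kinases that control them were followed in sorted macula densa cells and in sorted control cells of the mouse kidney cortex. The group held 9 genes, found in the count table by their symbols: the cotransporters Slc12a1, Slc12a2, Slc12a3 and Slc12a7, the kinases Wnk1 and Wnk4, the kinases Stk39 and Oxsr1 that act below them, and the scaffold gene Cab39l. All 9 were found among the 23378 genes of the count table, and all 9 passed the filter on low counts that left 14180 genes. Every mouse was C57BL/6 and carried the same alleles, an nNOS-driven CreERT2 (a tamoxifen-dependent recombinase under the control of the neuronal nitric oxide synthase gene) and the mTmG reporter. In this model cells in which Cre has acted make a membrane green protein and were sorted as macula densa cells, while the brightest red cells were sorted as controls meant to stand for distal tubule and collecting duct epithelium. Mice had a control diet, or a low salt diet together with enalapril, which blocks the enzyme that makes angiotensin II, at 150 mg/L in the drinking water, for 14 days before the sort. The 12 RNA-seq libraries were 2 of macula densa cells on the control diet, 2 of macula densa cells on low salt with enalapril, 4 of control cells on the control diet and 4 of control cells on low salt with enalapril. Low salt and enalapril were given together, so their parts cannot be told apart. The ages of the mice are not given in the sources used here.

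SLC12 proteins move chloride together with sodium, potassium or both across cell membranes. The macula densa, a plaque of tubule cells beside the glomerulus, senses the salt that reaches it by taking up sodium, potassium and chloride through NKCC2, and answers by changing renin release and the tone of the afferent arteriole. WNK kinases phosphorylate and activate the kinases SPAK and OSR1, which in turn phosphorylate the cotransporters. This raises the activity of the sodium-coupled carriers and lowers that of the potassium-chloride carriers. MO25 proteins hold SPAK and OSR1 in their active form.

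The libraries held 4259034 to 14856540 counts each, of which 781241 to 2331458 fell on nuclear protein-coding genes, because Gm42418, a gene that overlaps a ribosomal RNA repeat, took 53.5 to 65.0%. Levels are given as CPM, the counts of a gene scaled to a library of 1000000 counts after edgeR's TMM factors. The summed level of 4 macula densa markers was 349 to 1193 CPM in the macula densa libraries and 0.984 to 12.8 CPM in the control cells. Principal cell markers of the collecting duct, 8 genes, summed to 104 to 900 CPM in the control cells and to 11.3 to 41.5 CPM in the macula densa libraries. Proximal tubule markers, 8 genes, summed to 39.7 to 156 CPM in the macula densa libraries and 32.8 to 76 CPM in the control cells. For 8 intercalated cell markers the sums were 50.2 to 112 CPM and 33 to 500 CPM. The control-cell libraries also held glomerular transcripts. The summed level of 6 podocyte and 7 endothelium markers was 2732, 2176, 1432 and 81.4 CPM in control cells on the control diet, and 442, 1841, 407 and 2010 CPM in control cells on low salt with enalapril. In the macula densa libraries the same sum was 292 and 36.6 CPM on the control diet and 30.3 and 19.2 CPM on low salt with enalapril. None of these 13 markers was at 0 in all libraries of a group. Nothing in the labels says that the libraries came from separate animals, so p-values measure only the spread between these libraries, which may be technical.

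The stretches upstream of Slc12a1, Slc12a3, Wnk1 and Wnk4 are shown because these genes carry the largest cotransporter and WNK levels and showed different patterns across the libraries. They are RefSeq promoter windows of GRCm38.p6, each running from 250 bases before the RefSeq start up to the base before the first annotated transcript base. Capitals mark matches to the TATA box TATAAA, the CCAAT box or the GC box GGGCGG, and a match on the opposite strand appears as its reverse complement.
Slc12a1: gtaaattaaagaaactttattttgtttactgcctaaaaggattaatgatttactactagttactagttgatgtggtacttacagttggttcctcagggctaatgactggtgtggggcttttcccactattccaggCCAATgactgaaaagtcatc
Slc12a3: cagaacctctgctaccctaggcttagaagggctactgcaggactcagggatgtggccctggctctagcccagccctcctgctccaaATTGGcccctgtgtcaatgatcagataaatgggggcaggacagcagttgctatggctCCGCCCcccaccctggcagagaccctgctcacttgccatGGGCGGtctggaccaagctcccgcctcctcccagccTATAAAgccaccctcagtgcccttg
Wnk1: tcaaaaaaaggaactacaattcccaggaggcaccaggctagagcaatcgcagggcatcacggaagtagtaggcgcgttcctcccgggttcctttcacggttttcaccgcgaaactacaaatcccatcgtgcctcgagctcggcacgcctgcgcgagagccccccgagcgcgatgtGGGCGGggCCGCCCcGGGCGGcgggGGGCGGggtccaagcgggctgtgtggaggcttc
Wnk4: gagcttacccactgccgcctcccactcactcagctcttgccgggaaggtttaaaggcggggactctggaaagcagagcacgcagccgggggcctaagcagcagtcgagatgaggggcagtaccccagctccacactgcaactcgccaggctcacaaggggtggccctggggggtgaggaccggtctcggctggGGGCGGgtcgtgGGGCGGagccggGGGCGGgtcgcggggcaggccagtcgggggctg
The Slc12a1 window (chr2:125152350-125152504, plus strand, 155 bases) was 37.4% G or C with 0 CpG sites, and 11% of all promoter windows had a lower GC content. It held 1 CCAAT match, as did 21% of the 27025 windows of that length. The Slc12a3 window (chr8:94328958-94329200, plus strand, 243 bases) was 60.9% G or C with 3 CpG sites. It held TATAAA at position -32 from the RefSeq start, as did 12.8% of windows anywhere in that length, with 1 CCAAT match and 2 GGGCGG matches. The Wnk1 window (chr6:120038673-120038905, minus strand, 233 bases) had 24 CpG sites and 4 GGGCGG matches, against 30.4% of windows with at least 1. The Wnk4 window (chr11:101260317-101260566, plus strand, 250 bases) had 17 CpG sites and 3 GGGCGG matches, against 32.9% of windows with at least 1. GTTAAT, part of the HNF1 motif, and AGAACA, part of the motif of steroid receptors, had 0 matches in these 4 windows. A match describes letters only.

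Macula densa cells differed from control cells in 2 of the 9 genes, Slc12a1 and Wnk1, both higher in macula densa cells. The comparison, averaged over the diets, asked which of these genes set the sorted macula densa population apart from the sorted control cells. In 5 libraries of those control cells the podocyte and endothelium markers summed to over 500 CPM. By edgeR's quasi-likelihood test with Benjamini-Hochberg adjustment at 0.05, 21.3% of the 14180 genes were called, 7.48% higher and 13.9% lower. The median log2 fold change of the 9 genes was 0.08, against -0.06 for all genes tested. For the same 2 genes every macula densa library lay apart from every control-cell library, which held for 9.58% of all genes in either direction.

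Slc12a1 (chr2:125152505-125230002, plus strand, GRCm38) encodes NKCC2, the sodium-potassium-chloride carrier of the thick ascending limb and the macula densa. It stood at 1769 and 2026 CPM in macula densa cells on the control diet and at 1875 and 2012 CPM on low salt with enalapril. In control cells it was 41.8, 59.4, 223 and 309 CPM on the control diet and 220, 194, 430 and 143 CPM on low salt with enalapril. Every macula densa library lay above every control-cell library, while the control-cell libraries spread widely and their diets overlapped. Slc12a1 was 9.72-fold higher in macula densa cells over both diets (log2 fold change 3.28, SE 0.46, edgeR adjusted p = 0.00065), 12-fold on the control diet (3.58, SE 0.66, adjusted p = 0.00928) and 7.88-fold on low salt with enalapril (2.98, SE 0.65, adjusted p = 0.0201). With log2 of the podocyte and endothelium sum as a covariate the averaged value was 1.98 with edgeR adjusted p = 0.0601. The low salt value was then 1.19 with adjusted p = 0.451. On low salt with enalapril that sum did not overlap between the populations, 30.3 and 19.2 CPM against 407 to 2010 CPM. The covariate thus runs close to the cell population, so a call lost in that fit cannot be assigned to these markers. The low salt call was also lost when macula densa replicate 1 (adjusted p = 0.0665) or 2 (0.122) or control-cell replicate 2 (0.0541) or 4 (0.061) of that diet was left out, and the control diet call when macula densa replicate 2 was (0.0853). In bulk RNA fewer cells of a type and less RNA per cell cannot be told apart, so none of these levels is a level per cell. Markers of the thick ascending limb, 9 genes without Slc12a1, moved with it between the populations: 4 were higher in macula densa cells over both diets, where 7.48% of all genes were, with a median of 1.2. Their summed level was 1601 and 2215 CPM in macula densa cells on the control diet but 477 and 468 CPM with low salt, a gap between diets that Slc12a1 did not show. Most of that gap lay in Egf (mean 1141 against 143 CPM) and Umod (464 against 137 CPM). Of the 9 markers 3 were higher with low salt in macula densa cells, and the median log2 fold change between diets was -0.58. In control cells the sum was 170, 227, 785 and 1246 CPM on the control diet, the same order of libraries as for Slc12a1, and 550, 295, 556 and 183 CPM with low salt. Cldn14 was at 0 in both macula densa libraries on the control diet. The part of these markers in the Slc12a1 difference was not tested.

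**Figure D1:**
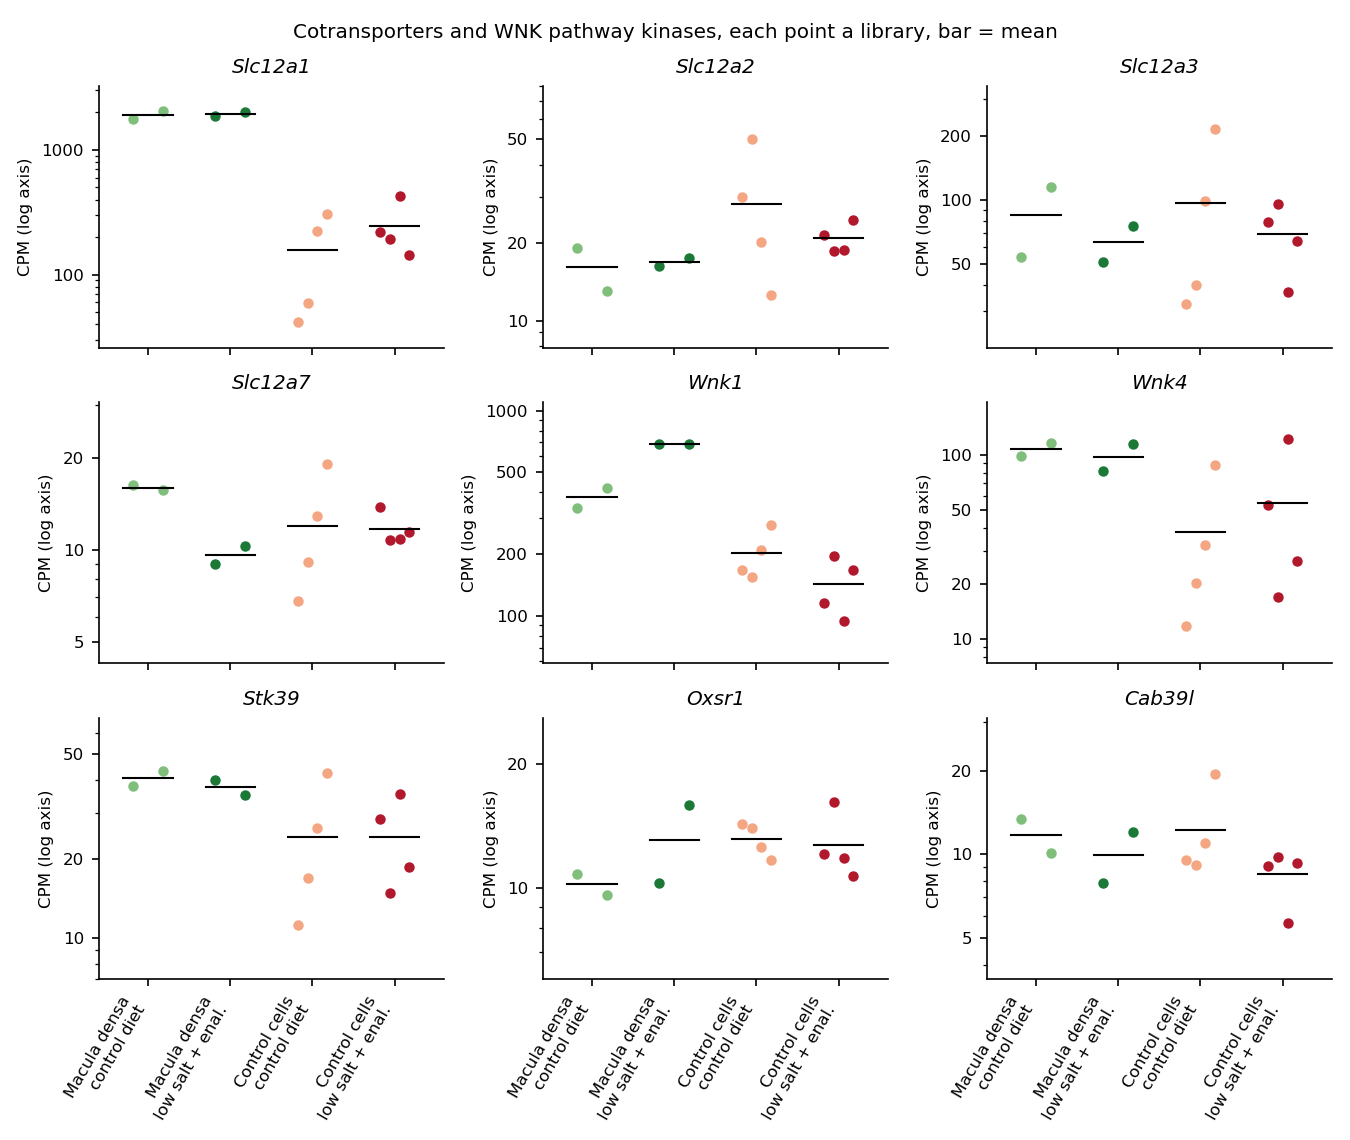
Level of the 9 genes in CPM on log axes in the 12 libraries, by cell population and diet, where each point is a library and each bar the mean of its group. The 4 macula densa points of Slc12a1 lie at 1769 to 2026 CPM, above all 8 control-cell points, and the 2 macula densa points of Wnk1 on low salt with enalapril lie above all other libraries.

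Slc12a3 (chr8:94329201-94366214, plus strand) encodes NCC, the thiazide-sensitive sodium-chloride carrier of the distal convoluted tubule. Its level was 53.9 and 116 CPM in macula densa cells on the control diet and 51.3 and 75.5 CPM on low salt with enalapril. Control cells gave 32.4, 40, 99 and 216 CPM on the control diet and 79.4, 96, 37 and 64.4 CPM on low salt with enalapril. All 4 groups overlapped, and the highest level was that of control-cell replicate 4 on the control diet. The averaged log2 fold change was -0.16 (SE 0.46, 95% interval -1.16 to 0.85, edgeR adjusted p = 0.853), and its sign was positive with library totals in place of TMM (0.04). Markers of the distal convoluted and connecting tubule, 8 genes, summed to 377 to 643 CPM in the macula densa libraries and 119 to 1113 CPM in the control cells. Of the macula densa sums Klk1 alone had a mean of 255 CPM on the control diet and 386 CPM on low salt with enalapril. Over both diets 4 of the 8 markers had a positive log2 fold change, and their median was -0.23. Pvalb was at 0 in all libraries of both populations on low salt with enalapril. The part of these markers in the Slc12a3 level was not tested.

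Slc12a2 (chr18:57878678-57946821, plus strand) encodes NKCC1, the broadly expressed sodium-potassium-chloride carrier. It stood at 13 to 19.1 CPM in the macula densa libraries and at 12.6 to 50.2 CPM in the control cells. Control-cell replicate 2 on the control diet was highest and replicate 4 of the same group lowest. The averaged log2 fold change was -0.56 (SE 0.30, edgeR adjusted p = 0.214). Without that replicate 4 the value was -0.68 with adjusted p = 0.0463, and with the podocyte and endothelium sum as a covariate it was 0.48 with adjusted p = 0.56. Slc12a2 was highest in the 2 control-cell libraries with the highest podocyte and endothelium sums, 2176 and 2732 CPM, at 50.2 and 30 CPM. The part of those markers in the Slc12a2 level was not tested beyond that fit, whose covariate runs close to the cell population.

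Slc12a7 (chr13:73733094-73816754, plus strand) encodes KCC4, a potassium-chloride carrier that lets both ions leave the cell. Its levels were low, 16.3 and 15.8 CPM in macula densa cells on the control diet, 9 and 10.3 CPM on low salt with enalapril, and 6.78 to 19.2 CPM in control cells. The averaged log2 fold change between the cell populations was 0.07 (SE 0.24, 95% interval -0.45 to 0.59, edgeR adjusted p = 0.881).

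Wnk1 (chr6:119923969-120038672, minus strand) encodes a WNK kinase that activates SPAK and OSR1, and in the distal tubule a kidney-specific form without most of the kinase domain is known. Gene-level counts do not separate these forms. Wnk1 stood at 334 and 422 CPM in macula densa cells on the control diet and at 689 and 690 CPM on low salt with enalapril. Control cells gave 167, 155, 210 and 278 CPM on the control diet and 115, 195, 93.9 and 167 CPM on low salt with enalapril. All 4 macula densa libraries lay above all 8 control-cell libraries, and the 2 macula densa libraries on low salt with enalapril lay above the other 2. Over both diets Wnk1 was 3-fold higher in macula densa cells (log2 fold change 1.59, SE 0.22, edgeR adjusted p = 0.000515). This call and the low salt call below held in each alternative run. On low salt with enalapril Wnk1 was 4.83-fold higher (2.27, SE 0.31, adjusted p = 0.00167), while on the control diet the 0.90 difference (SE 0.31) had adjusted p = 0.0998 although the libraries did not overlap. Without control-cell replicate 4 the control diet value was 1.09 with adjusted p = 0.0241. It was 0.43 without the 5 control-cell libraries with over 500 CPM of podocyte and endothelium markers. That fit leaves replicate 4 as the single control-diet library of control cells.

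Wnk4 (chr11:101260567-101277409, plus strand) encodes the WNK kinase of the distal nephron in which mutations cause familial hyperkalaemic hypertension. It stood at 98.7 and 116 CPM in macula densa cells on the control diet and at 81.4 and 114 CPM on low salt with enalapril. Control cells gave 11.8, 20.2, 32.5 and 88.2 CPM on the control diet and 53.5, 16.9, 121 and 26.5 CPM on low salt with enalapril. The macula densa levels were close together, while control cells covered the whole range, and control-cell replicate 3 on low salt with enalapril was the highest of all 12. The averaged log2 fold change was 1.17 (SE 0.53, edgeR adjusted p = 0.138), and it was 1.58 with adjusted p = 0.0167 without control-cell replicate 4 on the control diet and 1.54 with adjusted p = 0.0394 without control-cell replicate 3 on low salt with enalapril. It was 0.22 without the 5 control-cell libraries with over 500 CPM of podocyte and endothelium markers, and -0.52 with their sum as a covariate. The fit without those 5 libraries leaves a single control-diet library of control cells. Exons of Wnk4 overlap those of the antisense gene Gm11615, and with no strand setting stated for the counting the reads of both cannot be told apart.

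Stk39 (chr2:68210445-68472268, minus strand) encodes SPAK, the kinase that phosphorylates NKCC2 and NCC. It stood at 37.9 and 43 CPM in macula densa cells on the control diet and at 39.8 and 35.1 CPM on low salt with enalapril. Control cells gave 11.2, 16.9, 26.2 and 42.4 CPM on the control diet and 28.4, 14.9, 35.3 and 18.7 CPM on low salt with enalapril. The order of the libraries was close to that of Wnk4, with the same 2 control-cell libraries reaching the macula densa levels. The averaged log2 fold change was 0.68 (SE 0.31, edgeR adjusted p = 0.146). It was 0.89 with adjusted p = 0.021 without control-cell replicate 4 on the control diet, and 0.91 with adjusted p = 0.0359 with library totals. Without the 5 control-cell libraries with over 500 CPM of podocyte and endothelium markers it was 0.08. That fit leaves a single control-diet library of control cells.

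Oxsr1 (chr9:119238432-119322427, minus strand) encodes OSR1, the close relative of SPAK. It lay between 9.61 and 16.2 CPM in all 12 libraries, with an averaged log2 fold change of -0.15 (SE 0.17, 95% interval -0.52 to 0.22, edgeR adjusted p = 0.569). On the control diet its 2 macula densa libraries, 10.8 and 9.61 CPM, lay below the 4 control-cell libraries, 11.7 to 14.3 CPM, with adjusted p = 0.386. Cab39l (chr14:59440972-59585764, plus strand) encodes MO25 beta and lay between 5.67 and 19.4 CPM, with an averaged log2 fold change of 0.08 (SE 0.24, 95% interval -0.45 to 0.61, edgeR adjusted p = 0.85). Its exons overlap those of Cdadc1 on the opposite strand, a gene with 21 to 111 counts per library.

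Within the control cells Wnk4 and Stk39, which did not pass the test, were higher where the podocyte and endothelium markers were lower. The plot of member levels against those markers shows this. The 3 control-cell libraries with marker sums of 81.4, 407 and 442 CPM had the highest Stk39 (42.4, 35.3 and 28.4 CPM) and Wnk4 (88.2, 121 and 53.5 CPM) of the control cells. The 2 control-cell libraries with the highest sums, 2732 and 2176 CPM, had the lowest Slc12a1, 41.8 and 59.4 CPM. Wnk1 had another order, with its lowest levels, 93.9 and 115 CPM, in control cells with sums of 407 and 442 CPM. Without the 5 control-cell libraries over 500 CPM, Slc12a1 was 2.59 log2 higher in macula densa cells and Wnk1 1.57. That fit leaves a single control-diet library of control cells, the one with a sum of 81.4 CPM. With the sum as a covariate the Wnk1 value was 1.36 with edgeR adjusted p = 0.0403.

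**Figure D2:**
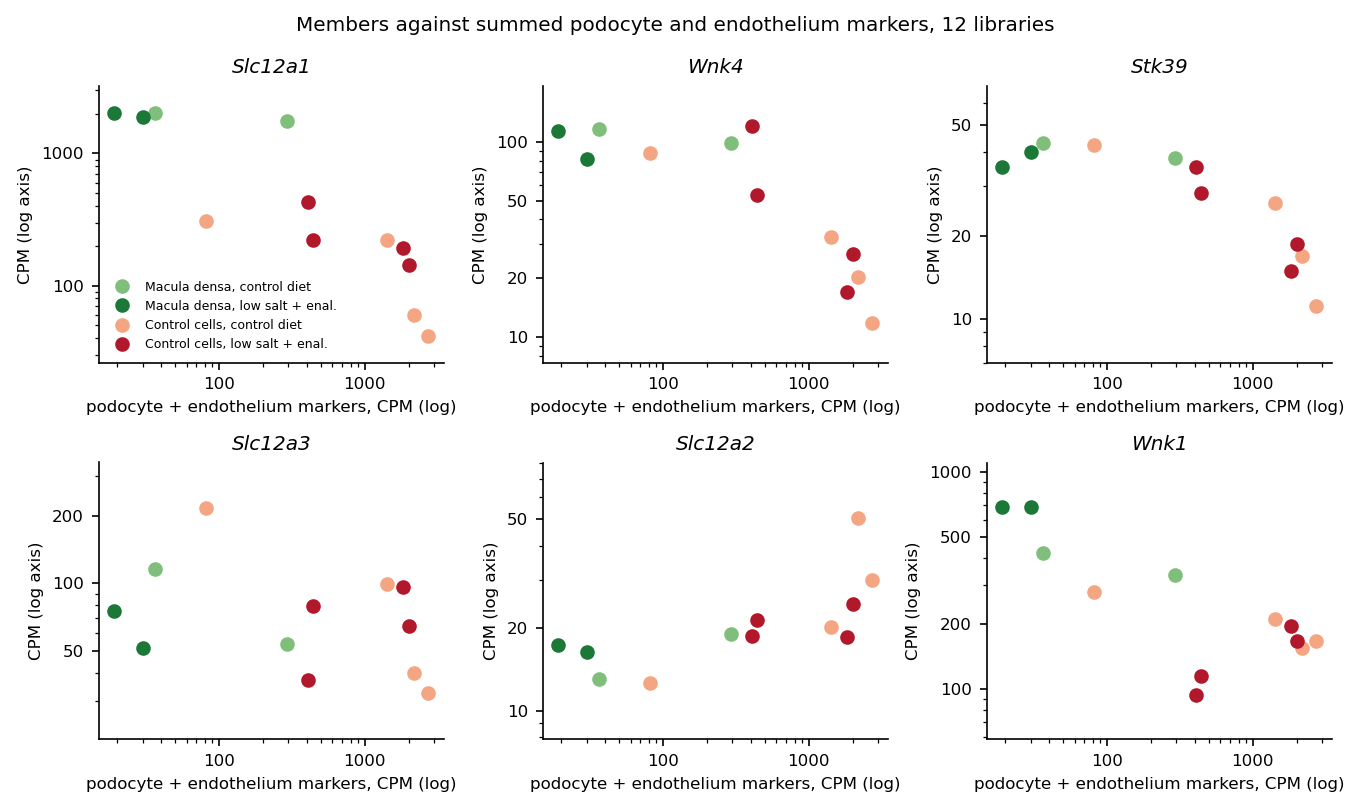
Level of 6 of the genes in CPM against the summed CPM of 6 podocyte and 7 endothelium markers, both on log axes, each point a library colored by group. Wnk4 and Stk39 lie low in the 5 control-cell libraries with sums over 500 CPM and higher in the other 3, of which 2 reach the macula densa points, whereas Slc12a1 stays below the macula densa points in all 8 control-cell libraries.

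Per kilobase of exon, Slc12a1 had the highest mean of the 9 genes in every group. Levels per kilobase divide the CPM by the length of all annotated exons, the only scale on which genes are compared with each other here. In macula densa cells on the control diet Slc12a1 stood at 329 ± 31.6 CPM per kb (SD, n = 2), followed by Wnk4 at 25.9 ± 3.03, Wnk1 at 16.6 ± 2.73, Stk39 at 8.16 ± 0.736 and Slc12a3 at 7.65 ± 3.97. The other 4 genes lay between 1.27 and 1.9 CPM per kb, and Stk39 and Slc12a3 overlapped. On low salt with enalapril Wnk1 at 30.2 ± 0.0497 CPM per kb came before Wnk4 at 23.5 ± 5.5. In control cells Slc12a1 was 27.5 ± 22.5 CPM per kb on the control diet and 42.8 ± 21.9 on low salt with enalapril (SD, n = 4). On the control diet every neighbour in the order of control-cell levels overlapped, with Wnk4 (9.2), Wnk1 (8.88) and Slc12a3 (8.7 CPM per kb) close together. In replicate 1 of that group Wnk1 was 7.32 and Slc12a1 7.25 CPM per kb. Per kb of the longest transcript Wnk1 lay above Slc12a1 in replicates 1 (14.7 against 8.81) and 2 (13.7 against 12.5). The order of Wnk1 and Wnk4 rests on the length used: their ratio in the 2 macula densa libraries on the control diet was 0.616 and 0.659 per exonic kb but 1.23 and 1.32 per kb of the longest transcript. So does that of Stk39 and Slc12a3. In macula densa cells on low salt with enalapril they stood at 7.56 and 5.7 CPM per exonic kb, but at 10.6 and 14.7 per kb of the longest transcript. By that length Slc12a3 (22.5) also came before Wnk1 (17.9) in control cells on the control diet.

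The balance of NKCC2 to NCC transcripts separated the populations, as Slc12a1 alone did, while Slc12a3 alone overlapped between them. Slc12a1 to Slc12a3, per exonic kb, was 63.4 and 33.6 in macula densa cells on the control diet and 70.5 and 51.4 on low salt with enalapril, against 2.49, 2.86, 4.35 and 2.77 and then 5.34, 3.9, 22.4 and 4.29 in control cells. Control-cell replicate 3 on low salt with enalapril, with the highest Slc12a1 of the control cells and a Slc12a3 of 37 CPM, stood apart from the other control cells but below every macula densa library. Per kb of the longest transcript the ratio was lower, 15.9 to 33.2 in macula densa libraries and 1.17 to 10.6 in control cells, again without overlap. Stk39 to Oxsr1, the balance of SPAK to OSR1, was 2.38 to 4.83 in the macula densa libraries and 0.841 to 3.92 in the control cells, which overlap. Wnk1 to Wnk4 did not overlap between the diets in macula densa cells, with 0.616 and 0.659 on the control diet against 1.54 and 1.1. Of these genes Wnk1 alone did not overlap between those groups of 2 and Wnk4 did, where 40.6% of all genes tested did not overlap. In control cells the diets overlapped (0.573 to 2.57 and 0.141 to 2.1). These ratios were not tested.

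**Figure D3:**
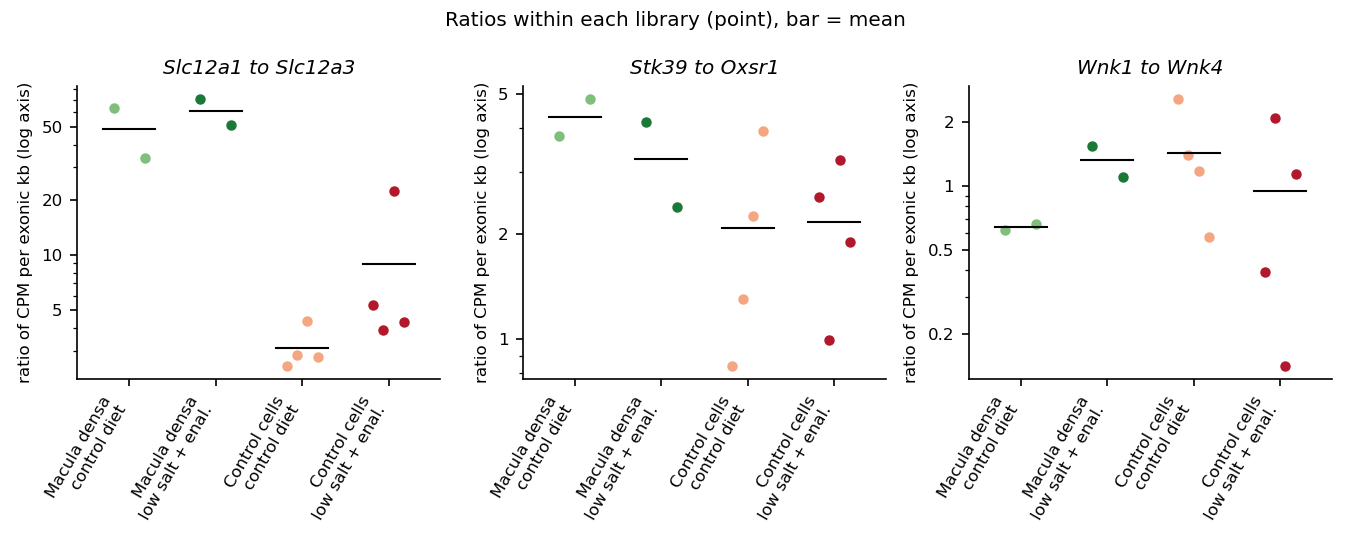
Ratios within each library of CPM per exonic kb on log axes, for Slc12a1 to Slc12a3, Stk39 to Oxsr1 and Wnk1 to Wnk4, each point a library and each bar the group mean. The macula densa points of Slc12a1 to Slc12a3 lie at 33.6 to 70.5, above the highest control-cell point at 22.4.

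The diet and enalapril changed none of the 9 genes past the threshold in either population. In macula densa cells 0 of 14180 genes (0%) passed edgeR's adjusted threshold, 1594 genes (11.2%) had an unadjusted p under 0.05 and DESeq2 called 93. The median log2 fold change of the 9 genes was -0.11, against -0.02 for all genes. Wnk1 was 378 ± 62.2 CPM on the control diet and 689 ± 1.14 CPM on low salt with enalapril (SD, n = 2), with no overlap (log2 fold change 0.87, SE 0.37, 95% interval 0.06 to 1.67, edgeR unadjusted p = 0.037, adjusted p = 0.414). Fitted on the macula densa libraries alone the value was 0.88 with adjusted p = 0.0426. Slc12a7 was the other gene whose diet groups did not overlap, 16.1 ± 0.359 against 9.67 ± 0.941 CPM (-0.73, SE 0.39, adjusted p = 0.524). That holds for 2 of the 9 genes, and 40.6% of all genes tested did not overlap between these groups of 2. Slc12a1 gave 0.03 (95% interval -1.65 to 1.72), Slc12a3 -0.42 (-2.07 to 1.22), Wnk4 -0.14 (-2.07 to 1.79) and Stk39 -0.11 (-1.25 to 1.03), so changes of more than 2-fold lie within these intervals.

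In control cells, too, 0 of the 9 genes passed, where 1 of all genes tested (0.00705%) did, 914 genes (6.45%) had an unadjusted p under 0.05 and DESeq2 called 74. The median log2 fold change of the 9 genes was -0.06, against -0.04 for all genes, and the diet groups overlapped for all 9, where 4.2% of all genes did not overlap. Wnk1 had a log2 fold change of -0.51 (SE 0.26, edgeR adjusted p = 0.857) and Cab39l of -0.53 (SE 0.28, adjusted p = 0.865). Slc12a1 gave 0.64 (95% interval -0.56 to 1.84) and Slc12a3 -0.48 (-1.64 to 0.68). Without the 5 control-cell libraries over 500 CPM of podocyte and endothelium markers Wnk1 fell by 1.43 (edgeR adjusted p = 0.0218) and Slc12a3 by 1.90 (adjusted p = 0.0479), but this fit leaves a single control-diet library, replicate 4, assumed to vary like the others.

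The diet effect on Wnk1 differed between macula densa and control cells by 1.37 log2 (SE 0.45, 95% interval 0.39 to 2.36, edgeR unadjusted p = 0.0102), the smallest p of the 9 genes, with adjusted p = 0.633. No gene of the 14180 passed this test of the difference (0%), 997 (7.03%) had an unadjusted p under 0.05 and DESeq2 called 13. Without the 5 control-cell libraries named above the Wnk1 difference was 2.29 with adjusted p = 0.0199, again with a single control-diet library of control cells. The other 8 genes had adjusted p-values of 0.804 or more.

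**Figure D4:**
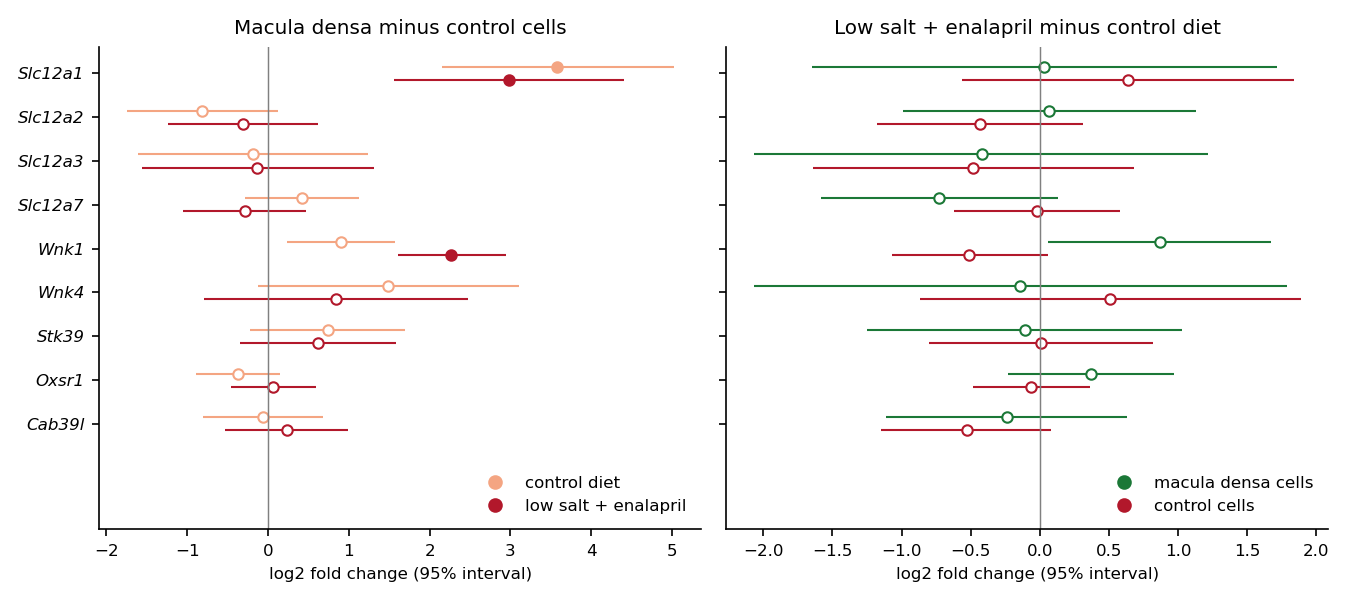
Log2 fold changes of the 9 genes with 95% intervals from edgeR, between the cell populations within each diet (left) and between the diets within each population (right), where filled points have an adjusted p under 0.05. Filled points are Slc12a1 on both diets and Wnk1 on low salt with enalapril, and the diet panel holds none.

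Beyond the 9 genes, 30 of 31 other genes of the pathway passed the filter, Wnk3 being too low, and 8 of them were called between the populations over both diets, 5 higher and 3 lower. That is to be read against all genes tested, of which 21.3% were called, 7.48% higher and 13.9% lower, with a median of -0.06. Of the potassium-chloride and other SLC12 carriers 1 of 5 was lower and 0 higher, against 13.9% and 7.48% of all genes, with a median of -0.88 against -0.06. That gene was Slc12a4, which encodes the carrier KCC1, at 1.3 to 3.18 CPM in macula densa cells and 3.72 to 10.3 CPM in control cells (-1.85, SE 0.31, edgeR adjusted p = 0.00194). Wnk2, at 0 to 0.766 CPM in macula densa cells and 0.692 to 3.67 CPM in control cells, was lower (-2.48, SE 0.71, adjusted p = 0.0274), with at most 8 counts per macula densa library, and it was -4.85 when macula densa replicate 1 on low salt with enalapril was left out. Cab39, which encodes MO25 alpha, gave -0.45 with adjusted p = 0.0521. The Slc12a4 call was lost without the 5 control-cell libraries over 500 CPM of podocyte and endothelium markers (-1.30). It was also lost with their sum as a covariate (-0.85, edgeR adjusted p = 0.181). The Wnk2 call was lost in 7 of 21 alternatives, among them the fit without those 5 libraries (-1.67). That fit leaves a single control-diet library of control cells.

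Among 7 genes for WNK turnover and upstream control 1 was higher and 1 lower, against 21.3% of all genes called in either direction, and the median was -0.03 against -0.06. Klhl3 encodes the adaptor that brings WNK kinases to the cullin 3 ubiquitin ligase. It stood at 69.2 and 72 CPM in macula densa cells on the control diet and 74.1 and 52.2 CPM on low salt with enalapril. Control cells held 7.76 to 33.4 CPM, and no library overlapped (2.34, SE 0.31, edgeR adjusted p = 0.000416), a call that held in each alternative run. Cul3, the cullin itself, gave 0.04, and Klhl2, the close relative of Klhl3, -0.44 with adjusted p = 0.106. Sgk1, the aldosterone-induced kinase, was lower in macula densa cells, 9.64, 2.85, 2.3 and 0 CPM against 6.3 to 74.8 CPM (-4.17, SE 0.77, adjusted p = 0.00336), with control-cell replicate 4 on the control diet within the macula densa range and adjusted p = 0.146 with the podocyte and endothelium covariate. When macula densa replicate 1 on low salt with enalapril was left out the value was -7.30, since the remaining library of that group had 0 counts.

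Of 7 phosphatase genes 1 was higher, against 7.48% of all genes. It was Ppp1r1a, an inhibitor of protein phosphatase 1, at 52.5 to 93.2 CPM in macula densa cells and 2.84 to 25.1 CPM in control cells (2.44, SE 0.43, edgeR adjusted p = 0.0024). The catalytic subunits Ppp1ca, Ppp1cb and Ppp1cc and the calcineurin genes did not pass, and the list median was 0.05 against -0.06. Of 3 trafficking genes, with a median of 0.4, 1 was higher, again against 7.48% of all genes: Sorl1, a sorting receptor (1.08, SE 0.32, adjusted p = 0.0311), a call lost in 11 of 22 alternatives with values down to 0.01. Umod, which encodes uromodulin, gave 0.40 with adjusted p = 0.691. Of 6 partners in salt transport 2 were higher and 0 lower, against 7.48% and 13.9% of all genes, with a median of 1.2 against -0.06. Casr, the calcium-sensing receptor, stood at 147 to 183 CPM in macula densa cells and 6.12 to 59 CPM in control cells (2.73, SE 0.44, adjusted p = 0.00144). Bsnd, which encodes barttin, gave 1.88 (SE 0.54, adjusted p = 0.0278), while Kcnj1, the apical potassium channel ROMK, gave 1.20 with adjusted p = 0.059. With the covariate, which runs close to the cell population, the calls of Ppp1r1a, Sorl1, Casr and Bsnd were lost. Those of Sorl1 and Bsnd were also lost without any 1 of the 4 macula densa libraries. For the diets 0 of these 30 genes were called in either population or in the difference, by the same background as above.

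**Figure D5:**
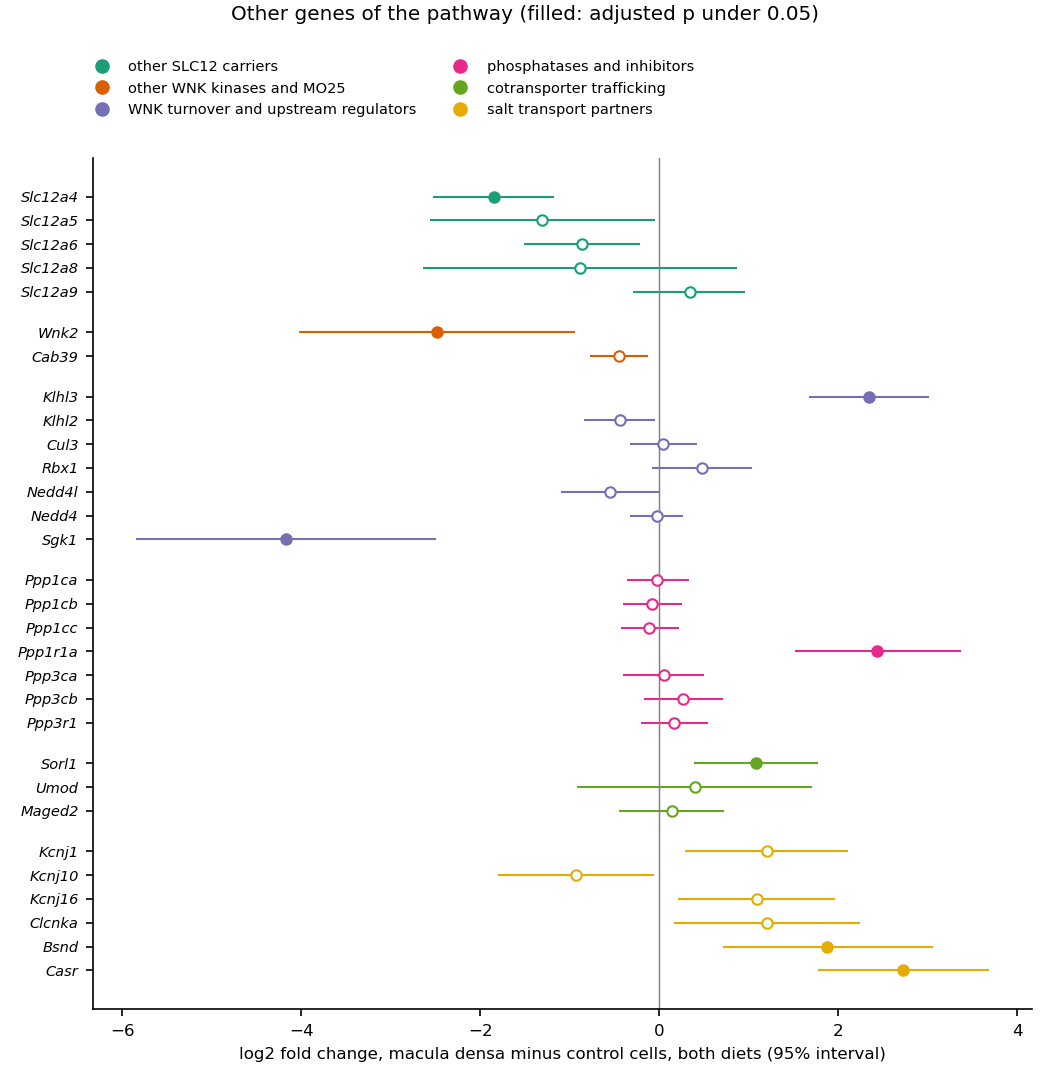
Log2 fold change between macula densa and control cells over both diets, with 95% intervals from edgeR, of the 30 other pathway genes tested, colored by list, where filled points have an adjusted p under 0.05. Klhl3, Ppp1r1a and Casr lie above 2, Slc12a4, Wnk2 and Sgk1 below -1.

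Within each diet alone, 1 of the 9 genes passed on the control diet, Slc12a1, where 6.61% of all genes were called (2.69% higher, 3.92% lower), and 2 on low salt with enalapril, Slc12a1 and Wnk1, where 7.27% were called (3.15% higher, 4.13% lower). On the control diet the libraries did not overlap for 4 of the 9 genes, with Slc12a1, Wnk1 and Wnk4 above and Oxsr1 below the control cells, against 31.9% of all genes. With low salt they did not overlap for Slc12a1 and Wnk1, above, and for Slc12a2 and Slc12a7, below, against 34.8% of all genes. Their medians were 0.42 and 0.23, against -0.05 and -0.06 for all genes. On the control diet Klhl3 (2.10, edgeR adjusted p = 0.0163), Ppp1r1a (2.76, adjusted p = 0.0198) and Casr (2.58, adjusted p = 0.0296) were higher as well, and on low salt with enalapril Klhl3 (2.59, adjusted p = 0.00593) and Casr (2.89, adjusted p = 0.0187). Slc12a4 was lower on the control diet (-1.74, adjusted p = 0.0334) and with low salt (-1.96, adjusted p = 0.0242), and Sgk1 with low salt (-5.29, adjusted p = 0.0225).

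Across the 12 libraries the 9 genes fell into different patterns. Wnk4 and Stk39 followed each other most closely, with a Pearson correlation of log2 CPM of 0.96, and of 0.95 after each group's mean was removed. Slc12a1 went with Wnk4 at 0.86 and 0.85, and with Stk39 at 0.84 and 0.91. Wnk1 and Wnk4 had 0.45, and -0.13 with the group means removed. Slc12a2 ran opposite to Slc12a1 at -0.72. Of 6679 other genes with a mean of at least 5 CPM, those most like Slc12a1 were Tmem72 (0.981), Gcgr (0.98) and Erbb4 (0.979). Kif21a was among the 3 genes most like both Wnk4 (0.987) and Stk39 (0.968). Those most like Wnk1 were Megf9 (0.97), Tanc1 (0.952) and Smpdl3a (0.95), and those most like Slc12a3 were Fam234b (0.894), Atp5g3 (0.872) and Chchd3 (0.87). These correlations are descriptions over 12 libraries that share groups, depth and glomerular markers.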

How the data were processed

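RNA of sorted kidney cortex cells was sequenced after preparation with the SMARTer Stranded Total-RNA Pico v2 kit, per the labels' protocols. The authors deposited 1 table holding an estimated count per gene for 12 libraries, in which 16.1% of values were not whole. STAR 2.61, Partek and the genome build mm10 are named in the submitters' processing notes. The counting method and its strand setting are not given in the sources used here. Of the columns, 0 had no sample.

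The 9 genes and all gene lists were chosen with earlier results of these data known. Positions and lengths came from GENCODE M21 on GRCm38, with which 23351 of 23378 genes shared symbol, start and end.

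Counts were rounded and scaled by TMM. Genes were kept with filterByExpr (count minimum 10, total minimum 15), which left 14180. A quasi-likelihood model of the 4 groups was fitted to all 12 libraries with edgeR 4.0.16 (R 4.3.3), and p-values were adjusted by Benjamini and Hochberg over all genes tested, with 0.05 as the threshold. Tests are two-sided. The SE of a log2 fold change is its size divided by the root of F, and intervals cover 95%. Over both diets means the average of the 2 diets' differences. Correlations used log2 CPM with a prior count of 2.

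Named genes were all 9 members, any gene of the pathway lists, and the 3 genes most correlated with each member. Markers were given as sums. A gene of the salt transport list is not reported here. No 2 libraries of a group agreed within sampling noise (chi-square per degree of freedom 7.66 or more). The alternatives were DESeq2 1.42.0 and its size factors, library totals, other filters, leaving out Gm42418, Mir6236 and mitochondrial genes, other sets of libraries, each library left out, and a replicate block. A further fit took log2 of the summed podocyte and endothelium markers as a covariate, and the sum named as a covariate always stands for this. The main edgeR model was tested on simulated counts in which 200 genes were changed 4-fold. It recovered 74% of them over both diets, 23% for the diet in macula densa cells and 54.5% for the diet in control cells. The alternative fits were not tested in this way. PCR copies cannot be told from separate molecules in these counts.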

Additional observations from a re-analysis of the deposited data

Results flagged for a closer look

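Cab39l in control-cell replicate 3 on low salt with enalapril was far below the other 3 libraries of its group, at 2.56 on the log2 CPM scale against 3.22 to 3.33. The gap was 0.858 of the range of the 4 libraries, above Dixon's 95% critical value for 4 values. It was the only such library in 18 sets of 4 checked (9 genes in each group of control cells), and chance gives about 1 in 20 sets. The same library had the highest Slc12a1, 430 CPM, and the highest Wnk4, 121 CPM, of the control cells, and the lowest Wnk1, 93.9 CPM.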

How the results depend on the processing

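Limits came from the size of the groups, with 2 macula densa libraries a diet, and from the control cells, whose podocyte and endothelium content varied. Over the 54 log2 fold changes of the 9 genes, 1206 alternative values were computed: 1074 kept direction and side of the threshold, 8 lost the threshold, 23 gained it and 101 changed sign. The Wnk1 calls over both diets and on low salt with enalapril held in each alternative, and the Slc12a1 call over both diets in 21 of 22. The cause of these changes was not tested. The genes called were 3027 over both diets, 938 on the control diet, 1031 on low salt with enalapril, 0 and 1 for the diet in macula densa and control cells, and 0 for the difference. With only the groups compared in the fit the genes called were 468 on the control diet, 105 for the diet in macula densa cells and 0 for the diet in control cells. Without the control-cell libraries over 500 CPM of podocyte and endothelium markers the genes called were 1099 over both diets, 464 on the control diet, 73 for the diet in macula densa cells, 209 for the diet in control cells and 61 for the difference of the diet effects. With the podocyte and endothelium covariate the genes called were 798 over both diets, 434 on low salt with enalapril, 35 for the diet in macula densa cells, 27 for the diet in control cells and 12 for the difference of the diet effects. With DESeq2 the genes called were 2000 on the control diet, 1922 on low salt with enalapril, 93 for the diet in macula densa cells, 74 for the diet in control cells and 13 for the difference of the diet effects. With a mean of at least 5 CPM the genes called were 1872 over both diets and 608 on the control diet. Leaving out 1 library at a time gave 1680 to 3968, 122 to 2490, 194 to 1894, 0 to 1, 1 to 5 and 0 to 0. With library totals the median of all genes over both diets was 0.14 in place of -0.06, and 1827 were higher and 1450 lower against 1061 and 1966. On the control diet the split was then 542 and 328 against 382 and 556 and on low salt with enalapril 736 and 392 against 446 and 585. With only the groups compared Slc12a1 on the control diet had adjusted p = 0.0571 by edgeR.

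Changes of sign concerned values that did not pass the test. With library totals, over both diets Slc12a3 was 0.04 and Oxsr1 was 0.04, on the control diet Slc12a3 was 0.02 and Cab39l was 0.13, on low salt with enalapril Slc12a3 was 0.07, for the diet in macula densa cells Slc12a1 was -0.02, for the diet in control cells Stk39 was -0.11. With no filter, on low salt with enalapril Oxsr1 was -0.01, for the diet in macula densa cells Slc12a1 was -0.09 and Slc12a2 was -0.06, for the diet in control cells Stk39 was -0.01, for the difference of the diet effects Slc12a3 was -0.02. Without Gm42418, Mir6236 and mitochondrial genes, for the diet in control cells Slc12a7 was 0.01. With only the groups compared in the fit, for the diet in control cells Slc12a7 was 0.01. Without the control-cell libraries over 500 CPM of podocyte and endothelium markers, over both diets Slc12a2 was 0.04, Slc12a7 was -0.32 and Cab39l was -0.17, on the control diet Slc12a2 was 0.33, Slc12a7 was -0.27 and Stk39 was -0.08, on low salt with enalapril Slc12a3 was 0.11, for the diet in control cells Slc12a2 was 0.65, Wnk4 was -0.05, Stk39 was -0.44 and Oxsr1 was 0.01, for the difference of the diet effects Slc12a2 was -0.59 and Stk39 was 0.32. With the podocyte and endothelium covariate, over both diets Slc12a2 was 0.48, Slc12a7 was -0.58, Wnk4 was -0.52, Stk39 was -0.34, Oxsr1 was 0.05 and Cab39l was -0.32, on the control diet Slc12a2 was 0.02 and Slc12a7 was -0.01, on low salt with enalapril Slc12a2 was 0.93, Wnk4 was -1.48, Stk39 was -0.73 and Cab39l was -0.32, for the diet in macula densa cells Slc12a1 was -0.78, for the diet in control cells Slc12a7 was 0.05, for the difference of the diet effects Slc12a3 was -0.96 and Cab39l was -0.01. Leaving out 1 library at a time turned the sign within these ranges: over both diets Slc12a3 -0.49 to 0.22, Slc12a7 -0.03 to 0.23 and Cab39l -0.09 to 0.24, on the control diet Slc12a3 -0.82 to 0.57 and Cab39l -0.27 to 0.25, on low salt with enalapril Slc12a3 -0.46 to 0.08, Oxsr1 -0.32 to 0.29 and Cab39l -0.14 to 0.45, for the diet in macula densa cells Slc12a1 -0.11 to 0.05, Slc12a2 -0.27 to 0.32, Slc12a3 -0.92 to 0.15, Wnk4 -0.46 to 0.01 and Oxsr1 -0.04 to 0.57, for the diet in control cells Slc12a2 -0.68 to 0.03, Slc12a3 -0.77 to 0.27, Slc12a7 -0.20 to 0.30, Wnk4 -0.23 to 1.34, Stk39 -0.21 to 0.43 and Oxsr1 -0.19 to 0.05, for the difference of the diet effects Slc12a3 -0.70 to 0.65, Wnk4 -1.47 to 0.09, Stk39 -0.54 to 0.10 and Cab39l -0.11 to 0.48. The fit without the control-cell libraries over 500 CPM and the covariate fit were chosen after the data were seen. The former leaves a single control-diet library of control cells, and the covariate of the latter runs close to the cell population. Per kb of the longest transcript 27 of the 36 group levels moved by more than their SD.

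The titles number the libraries of a group and the descriptions carry numbers of which 4 are shared by a macula densa and a control-cell library. No label says that a number marks an animal, so the numbers were not used to pair libraries in the results above. Libraries with the same description number had correlations of their deviations from the group means of 0.227, -0.0183, 0.0753 and -0.0371. In groups of 2 these deviations mirror each other, so the values cannot decide the pairing. With the replicate block on title numbers the genes called were 1908 over both diets, 378 on the control diet, 396 on low salt with enalapril and 0 for the diet in control cells. With the replicate block on description numbers (8 libraries) the genes called were 2217 on the control diet and 2192 on low salt with enalapril. With the replicate block on title numbers, over both diets Slc12a3 was 0.16, on the control diet Slc12a3 was 0.27 and Cab39l was 0.07, on low salt with enalapril Slc12a3 was 0.05 and Oxsr1 was -0.08, for the diet in control cells Slc12a7 was 0.07, for the difference of the diet effects Slc12a3 was -0.22. With the replicate block on description numbers (8 libraries), on the control diet Slc12a3 was 0.32 and Cab39l was 0.21, for the difference of the diet effects Slc12a3 was -0.65, Wnk4 was 0.12, Stk39 was 0.22 and Cab39l was -0.14. With the description block Wnk4 over both diets was 2.12 (edgeR adjusted p = 1.89e-05), Stk39 1.04 (0.00122) and Slc12a2 -0.69 (0.0179), all called. That fit leaves out control-cell replicates 1 and 4 on the control diet and 1 and 3 on low salt with enalapril. Among them are the control-cell libraries with the highest Wnk4, at 88.2, 53.5 and 121 CPM. The block and the libraries left out cannot be told apart in these calls. The calls gained within a diet were Wnk1 1.05 (0.00635), Wnk4 2.06 (0.000386), Stk39 0.93 (0.0194) and Slc12a2 -1.02 (0.0189) on the control diet, and Wnk4 2.18 (0.000294) and Stk39 1.15 (0.00955) with low salt, which makes 4 members higher and 1 lower on the control diet and 4 higher with low salt. With the title block Wnk4 over both diets was 2.10 (0.0467). Title numbers 3 and 4 occur only in control cells, so in that fit the averaged difference rests on replicates 1 and 2 of each group. The control-cell libraries with the highest Wnk4, 121 and 88.2 CPM, carry the numbers 3 and 4.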

Other observations

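The genes most like the less abundant members are given as descriptions, by Pearson correlation of log2 CPM over the 12 libraries among 6679 genes. Slc12a2 was followed most closely by Skil (0.908), Myh9, which encodes a non-muscle myosin heavy chain (0.881), and Myo1e, a myosin of podocytes and other cells (0.867). For Slc12a7 they were Aco1, which encodes cytosolic aconitase (0.947), Retsat, a retinol saturase (0.925), and Atp5mpl, a subunit associated with ATP synthase (0.915). Oxsr1 had lower values, with Socs6 (0.89), Ahr, the aryl hydrocarbon receptor (0.834), and Ext2 (0.824). For Cab39l the genes were Ei24 (0.917), Isoc1 (0.904) and Pepd, a peptidase for proline dipeptides (0.896).

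Among genes of salt transport, Kcnj10, a basolateral potassium channel, ran the other way from the 5 other genes of its list, at -0.93 log2 between macula densa and control cells (edgeR adjusted p = 0.121), and the diet value in control cells was -1.08 with an unadjusted p = 0.0302 that did not pass adjustment.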
